A study of Drosophila melanogaster with 4 samples.

Results

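The nuclear genes of respiratory complexes II to V were followed on arrays that compared *trx* mutant larvae with wild-type larvae of *Drosophila melanogaster*. A gene was a member when its current NCBI symbol starts with Sdh (complex II), UQCR- or Cyt-c (complex III and cytochrome c), COX and a digit (complex IV) or ATPsyn (complex V), or is RFeSP (complex III). Of 56 genes with such a symbol, 44 had a probe that the platform annotation ties to them, among 12069 genes on the array. They had 48 probes. The 12 without a matched probe were not analysed here. They are the mitochondrially encoded COX1, COX2 and COX3, both cytochrome c genes Cyt-c-p and Cyt-c-d, SdhA, UQCR-11, UQCR-C1, UQCR-C2, UQCR-6.4L, COX7AL2 and COX7CL. COX4L and COX5BL had a probe but no value on any array, and COX7C had a value on 1 array (-0.10, replicate 1 with the mutant in Cy5). That left 41 members with a value in both replicates, 33 of them on all 4 arrays.

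The mutant larvae carried the trxE3 and trxB11 alleles over each other in a w1118 background. *trx* encodes Trithorax, a histone methyltransferase that keeps genes in an active state. The reference was a pool of RNA from w1118 larvae of an isogenic line, used on every array. All were whole larvae in the third instar, fed 0.025% bromophenol blue and taken while wandering with blue guts. Mutants were picked by the absence of the Tubby marker, and the third chromosome of the mutants is not listed among those that were made isogenic. RNA of 2 extractions of mutant larvae was hybridized, each on 2 arrays with the dyes Cy3 and Cy5 swapped, which gives 2 biological replicates and 4 arrays. No source used here says whether the extractions came from separate cultures, so p-values measure only how far these extractions differ, which may be technical. With 1 pool as reference, variation between wild-type larvae does not enter them.

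Each value is a log2 ratio, mutant over wild type, so a negative value is a lower transcript level in the mutant. In whole larvae, fewer cells of a type and less RNA per cell cannot be told apart. The ratios hold no signal levels, so the depth behind a value is unknown and no marker level could be read. An array held between 11199 and 12775 values, the array medians lay between -0.033 and -0.012, and all pairs of arrays correlated across probes with Pearson's r between 0.71 and 0.904. The probe of *trx* had 0.22 in replicate 1 and 0.13 and 0.28 in replicate 2, with no value on the remaining array. Its mean was 0.21 (moderated SE 0.0473, adjusted p = 0.0859, limma), so this probe gives no check of the genotype labels.

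Complexes II, III and IV carry electrons in the inner mitochondrial membrane. Complex II (succinate dehydrogenase) takes them from succinate, complex III passes them to cytochrome c, and complex IV (cytochrome c oxidase) passes them to oxygen. Complexes III and IV pump protons, and complex V (ATP synthase) makes ATP with the gradient. In *Drosophila* many subunits have a main gene, used in most cells, and a paralog whose symbol ends in L, and several such paralogs are known for expression in the testis. Main copies and paralogs are kept apart in what follows.

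Most main copies had ratios below 0 in the mutant, of less than 2-fold. Of 26 main copies tested, 24 had a mean below 0, and their median log2 ratio was -0.53 (range -1.38 to 0.23). The 14 paralogs tested had a median of -0.092 (range -0.25 to 0.23), with 10 below 0 and none past the test in either direction (3 had an unadjusted p under 0.05 in limma, all 3 below 0). Over all 10050 genes tested the median was -0.020 and 54.1% were below 0. A call required an adjusted p under 0.05 in limma, over all genes tested, and a change of at least 2-fold. It was met by 3 of the 41 members, UQCR-6.4, Sdhaf3 and ATPsynCF6, all lower, where the background of lower calls was 2.52%. No member was called higher (background 1.57%).

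Without the fold threshold, 7 of 41 members were lower at an adjusted p under 0.05, against 8.18% of all genes, and 0 were higher, against 6.49%. The other 4 that were lower after adjustment were ATPsynO, ATPsyndelta, COX7B and COX7A. At an unadjusted p under 0.05 (limma) 1 member was higher, ATPsynB. Without adjustment many more members were lower than higher. Besides the members lower after adjustment, they include SdhC, SdhD, RFeSP, COX5A, COX5B, ATPsynF and ATPsynG. The share of all genes without adjustment is not given here. Of the 33 members with 4 values, 22 were below 0 on all 4 arrays, of which 20 are main copies, and 34.3% of all genes with 4 values did so. The plot of members by array shows these values for each gene.

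**Figure D1:**
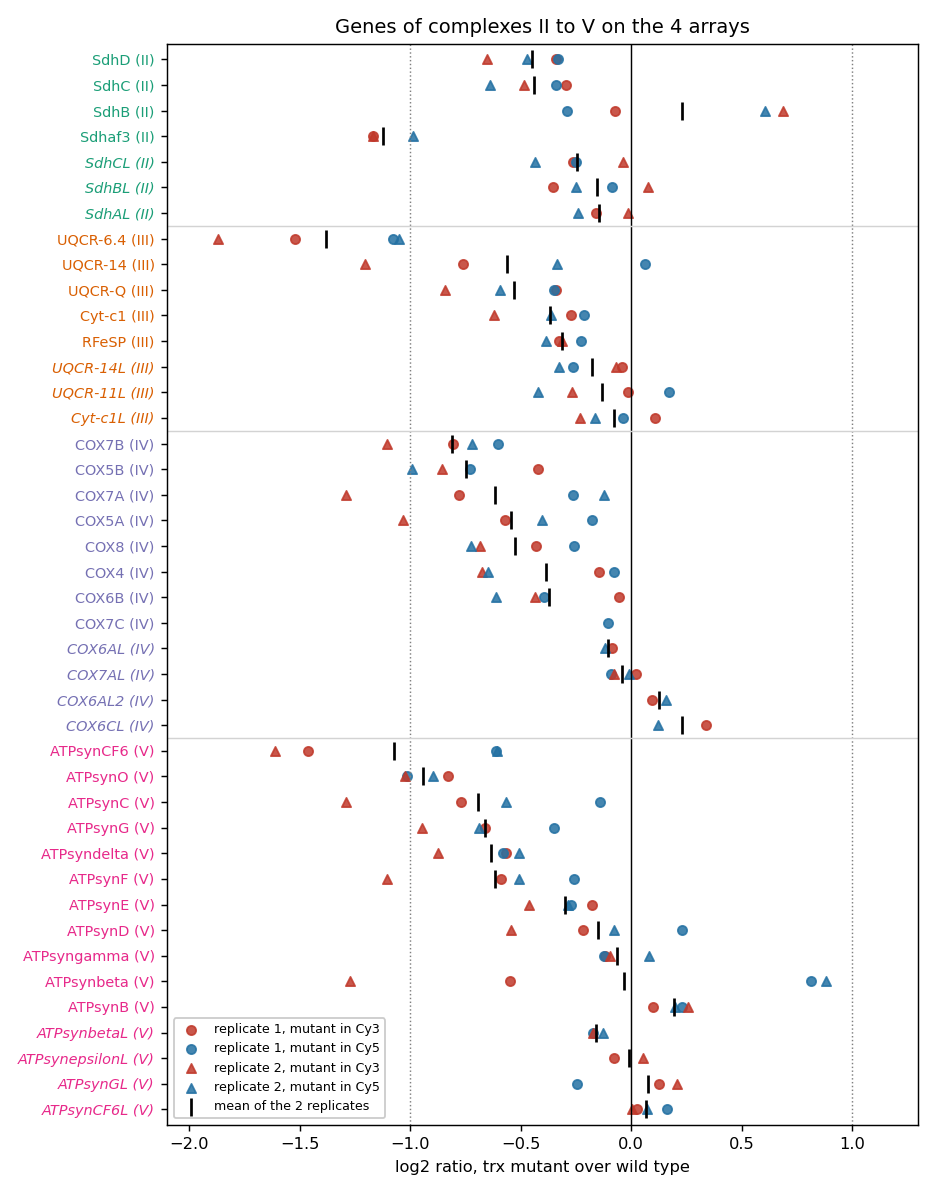
Log2 ratio of trx mutant over wild type (x axis) for each of the 42 members with a value (y axis), by complex (label color), with paralogs in italic labels. Circles are replicate 1 and triangles replicate 2, red is the mutant in Cy3 and blue the mutant in Cy5, black ticks are means of the 2 replicates and dotted lines mark 2-fold. The tick lies at -1.38 for UQCR-6.4, at -1.12 for Sdhaf3 and at -1.07 for ATPsynCF6, and most paralogs lie near 0.

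In complex II, an assembly factor fell most. Sdhaf3, which helps to mature the iron-sulfur subunit, had -1.17 in replicate 1 and -1.17 and -0.99 in replicate 2. It fell by 1.12 on the log2 scale (moderated SE 0.0537, adjusted p = 0.0193, limma, n = 2 replicates), which is a level 2.18 times lower in the mutant. Replicate 1 rests on the array with the mutant in Cy3 alone. Without that array the gene has no value in replicate 1 and no test.

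The membrane anchors SdhC and SdhD, which bind the quinone, were close to each other. SdhC had -0.30, -0.34, -0.48 and -0.64 over arrays 1 to 4, with the mutant in Cy3 on arrays 1 and 3, replicate 1 on arrays 1 and 2, and this order is kept below. SdhD had -0.34, -0.33, -0.65 and -0.47. Every value of both genes is negative, and replicate 2 is lower than replicate 1. Neither passed the test, with a mean of -0.44 for SdhC (adjusted p = 0.0737, limma) and -0.45 for SdhD (adjusted p = 0.0683).

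SdhB, the iron-sulfur subunit that hands electrons to the quinone site, was the only main copy besides ATPsynB with a mean above 0. Its values were -0.075 and -0.29 in replicate 1 and 0.69 and 0.60 in replicate 2. The replicates do not overlap and have opposite signs, whichever dye the mutant had. The mean of 0.23 did not pass the test (moderated SE 0.252, adjusted p = 0.541, limma).

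The 3 paralogs of complex II with a probe had means between -0.25 and -0.14. SdhAL, a copy of the flavoprotein, averaged -0.14, SdhBL -0.15 and SdhCL -0.25. None passed the test. SdhBL changed sign among its arrays (-0.35, -0.086, 0.075 and -0.25). SdhCL was below 0 on all 4 (-0.26, -0.25, -0.039 and -0.44), with an adjusted p of 0.0711 (limma) that lay between 0.0336 and 0.375 over all settings, under 0.05 in the 3 fits that take arrays one by one.

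All 8 tested members of complex III had a mean below 0. UQCR-6.4, a small membrane subunit, had the lowest mean among all members. It had -1.52, -1.08, -1.87 and -1.05, so that each of the 4 arrays showed a fall of over 2-fold. It fell by 1.38 (moderated SE 0.0672, adjusted p = 0.0194, limma), a level 2.60 times lower in the mutant. The call held under every setting tried.

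The small subunits UQCR-14 and UQCR-Q had means near the median of the main copies of the complex (-0.53, which was -0.31 on the Cy5 arrays alone and -0.34 without array 3). UQCR-14 had -0.76, 0.062, -1.20 and -0.34, and UQCR-Q had -0.34, -0.35, -0.84 and -0.60. UQCR-14 was lower with the mutant in Cy3 in both replicates, and one of its Cy5 values is above 0. Their means were -0.56 and -0.53, with adjusted p = 0.0934 and 0.0886 in limma, so neither passed.

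The subunits that carry electrons were at smaller negative ratios. Cyt-c1, the haem protein that reduces cytochrome c, had -0.27, -0.21, -0.62 and -0.37 (mean -0.37, adjusted p = 0.0942, limma). RFeSP, the Rieske iron-sulfur protein, had -0.33, -0.23, -0.31 and -0.39 (mean -0.31, adjusted p = 0.0605). RFeSP varied little among arrays and dyes. The paralogs Cyt-c1L, UQCR-11L and UQCR-14L averaged -0.080, -0.13 and -0.18, and none of them passed the test.

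In complex IV all 7 main copies tested were below 0 on all 4 arrays. All of them encode nuclear subunits that surround the catalytic core, whose own genes are mitochondrial and were not analysed here. Their means ran between -0.81 and -0.37, with a median of -0.55. None was called at 2-fold and 2 passed without the fold threshold.

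COX7B had -0.81, -0.61, -1.10 and -0.72. It fell by 0.81 (moderated SE 0.0777, adjusted p = 0.0330, limma), a level 1.75 times lower in the mutant. COX7A had -0.78, -0.26, -1.29 and -0.13. Its values fall apart by dye, lower with the mutant in Cy3, while the replicate means (-0.52 and -0.71) are close. It fell by 0.62 (moderated SE 0.0726, adjusted p = 0.0410, limma). COX7A no longer passed without array 1 (mean -0.49, adjusted p = 0.125), without array 3 (mean -0.32, adjusted p = 0.179) or without array 4 (mean -0.91, adjusted p = 0.0952). It did not pass either with Cy5 arrays alone (mean -0.19, adjusted p = 0.136) or with the 4 arrays as independent samples (adjusted p = 0.0667), and over all settings its adjusted p lay between 0.0131 and 0.179.

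COX5B had -0.42, -0.73, -0.85 and -0.99, a mean of -0.75 that missed the threshold (adjusted p = 0.0547, limma). It was lower with the mutant in Cy5 in both replicates, the reverse of COX7A. COX5A had -0.57, -0.18, -1.03 and -0.40 (mean -0.55) and COX8 had -0.43, -0.26, -0.68 and -0.72 (mean -0.53). COX4 and COX6B were nearer 0 in replicate 1 than in replicate 2. COX4 had -0.14 and -0.076 in replicate 1 and -0.68 and -0.65 in replicate 2, and COX6B had -0.057 and -0.39, then -0.44 and -0.61. These 4 genes had adjusted p between 0.0777 and 0.216.

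Paralogs of complex IV were on both sides of 0. COX7AL, with values on all 4 arrays, was nearest to 0 in the complex at 0.020, -0.092, -0.076 and -0.012. COX6AL averaged -0.10, COX6AL2 0.13 and COX6CL 0.23, each from 1 array in replicate 1 and 1 in replicate 2. None of the 4 passed the test.

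Complex V has a membrane rotor, a central stalk that turns, a catalytic head and a peripheral stalk that holds the head still. Its main copies had the widest range of means, between -1.07 and 0.19, and the median was -0.62. That median was -0.36 on the Cy5 arrays alone and -0.43 in replicate 1 alone. In the peripheral stalk the members ran from the lowest to the highest mean of the complex. ATPsynCF6 (coupling factor 6) had -1.47, -0.61, -1.61 and -0.61. Both values with the mutant in Cy3 are past 2-fold and both with the mutant in Cy5 are not, while the replicate means (-1.04 and -1.11) nearly coincide. It fell by 1.07 (moderated SE 0.0516, adjusted p = 0.0193, limma), a level 2.10 times lower in the mutant. The call was lost without array 1 (mean -0.86, adjusted p = 0.0651) and without array 3 (mean -0.82, adjusted p = 0.0606), and its adjusted p lay between 0.000775 and 0.0651 over all settings.

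ATPsynO, the subunit that ties the stalk to the head, had -0.83, -1.01, -1.03 and -0.90. Among members with 4 values that passed the test, its values are the most even, and they do not separate by dye. It fell by 0.94 (moderated SE 0.0488, adjusted p = 0.0205, limma), a level 1.92 times lower and so just short of a call. ATPsynD had -0.22, 0.23, -0.54 and -0.077 (mean -0.15, adjusted p = 0.364). Its Cy5 values were above its Cy3 values in both replicates, by about the same amount (0.45 and 0.47 in size).

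ATPsynB was the main copy of complex V with a mean above 0. It had 0.096, 0.23, 0.26 and 0.20 as the mean of 2 probes (mean 0.19, moderated SE 0.0507, adjusted p = 0.106, limma). It passed as higher with the 4 arrays as independent samples (adjusted p = 0.0252, limma), with a dye term added (0.0360) and with the replicate as a random block (0.0186). These fits take the arrays of an extraction one by one, although they share their RNA. The probes differed. One averaged 0.40 and was above 0 on all 4 arrays, and the other averaged -0.013, with -0.21, 0.098, -0.022 and 0.083.

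Of the central stalk, ATPsyndelta had -0.57, -0.58, -0.88 and -0.51. It fell by 0.63 (moderated SE 0.0589, adjusted p = 0.0321, limma), a level 1.55 times lower. ATPsyngamma, the shaft that turns inside the head, was nearest to 0 of the main copies of the stalks, with -0.12, -0.12, -0.097 and 0.081 (mean -0.065, adjusted p = 0.468).

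In the rotor and the membrane part, ATPsynC, which makes the ring that protons turn, had -0.77, -0.14, -1.29 and -0.57. All its values are negative, but replicates and dyes both differ, and the mean of -0.69 did not pass (moderated SE 0.149, adjusted p = 0.0822, limma). ATPsynG had -0.66, -0.35, -0.95 and -0.69 (mean -0.66, adjusted p = 0.0569), and ATPsynF and ATPsynE averaged -0.62 and -0.30. All 3 were below 0 on every array, ATPsynE as the mean of 2 probes. Its probes averaged -0.27 and -0.33 but ran opposite ways by dye. One had 0.072, -0.39, -0.21 and -0.53, lower in Cy5, and the other had -0.43, -0.15, -0.71 and -0.041, lower in Cy3, so the small dye gap of the gene averages probes that differ.

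The catalytic head gave ratios that turned with the dye. ATPsynbeta, the subunit that makes ATP, had -0.55 and -1.27 on the arrays that carried the mutant in Cy3, against 0.81 and 0.88 on those that carried it in Cy5. The dyes do not overlap, and the mean of -0.032 (moderated SE 0.109, adjusted p = 0.849, limma) averages values of opposite sign. It was the only one of 33 members with opposite signs in the 2 dyes in both replicates, which 5.75% of all genes showed. The gap between dyes (-1.76) was as large in 0.165% of 7264 genes with 4 values. The alpha subunit of the head, blw, which the symbol rule does not take, did the same, with -0.70 and -0.94 in Cy3 and 0.58 and 0.46 in Cy5. Its gap of -1.33 was as large in 0.496% of genes.

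**Figure D2:**
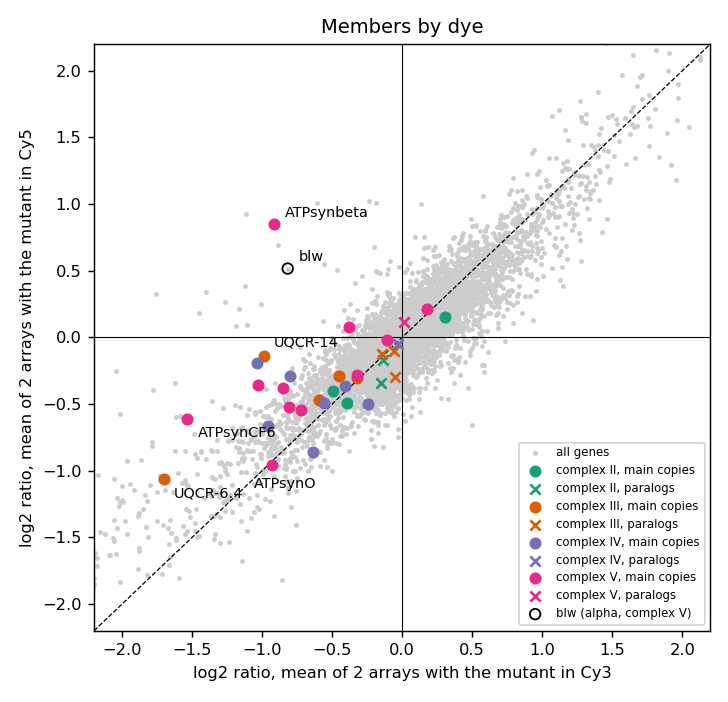
Mean log2 ratio of trx mutant over wild type on the 2 arrays with the mutant in Cy3 (x axis) and on the 2 arrays with the mutant in Cy5 (y axis) for genes with 4 values. Gray points are all such genes, colored circles are main copies, crosses are paralogs, the open circle is blw, and the dashed line marks equal values. ATPsynbeta and blw lie left of 0 and above 0, and ATPsynCF6, UQCR-14 and UQCR-6.4 lie left of the dashed line.

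Dye moved with the size of the fall in other main copies too. The median of the 26 main copies was -0.61 with the mutant in Cy3 and -0.37 with the mutant in Cy5. In both replicates 14 of them were lower in Cy3 and 4 were lower in Cy5. Over all genes with 4 values, 2404 were lower in Cy3 and 2415 lower in Cy5 in both replicates. The gap was -0.93 for ATPsynCF6, -0.85 for UQCR-14, -0.84 for COX7A, -0.68 for ATPsynC and -0.63 for UQCR-6.4, sizes that 1.06% to 2.3% of genes reached. ATPsynO, RFeSP and COX4 had gaps of 0.028, -0.013 and -0.048.

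With the arrays of 1 dye alone, 5 of 37 members were called lower in Cy3, where 3.42% of genes were, and 1 of 34 in Cy5, where 2.73% were. UQCR-6.4 was the member called in both. ATPsynbeta on the Cy5 arrays alone had a mean of 0.85 at an adjusted p of 0.0190, and on the Cy3 arrays alone -0.91 at 0.0592 (limma). The part of the dye in these results was not tested.

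Replicate 2 was lower than replicate 1 in 23 of 26 main copies, and in 5073 of 10050 of all genes. Their median was -0.34 in replicate 1 and -0.70 in replicate 2, and the median of all genes was -0.028 and -0.022. The gap was widest in COX4 (-0.11 in replicate 1 and -0.66 in replicate 2) and ATPsynC (-0.46 and -0.93), leaving SdhB aside, which ran the other way. The replicates lie nearest to each other in ATPsynO, ATPsynCF6, RFeSP and ATPsynB. Among paralogs replicate 2 was lower in 7 of 14. Whether these extractions differed in stage or in tissue makeup was not tested.

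**Figure D3:**
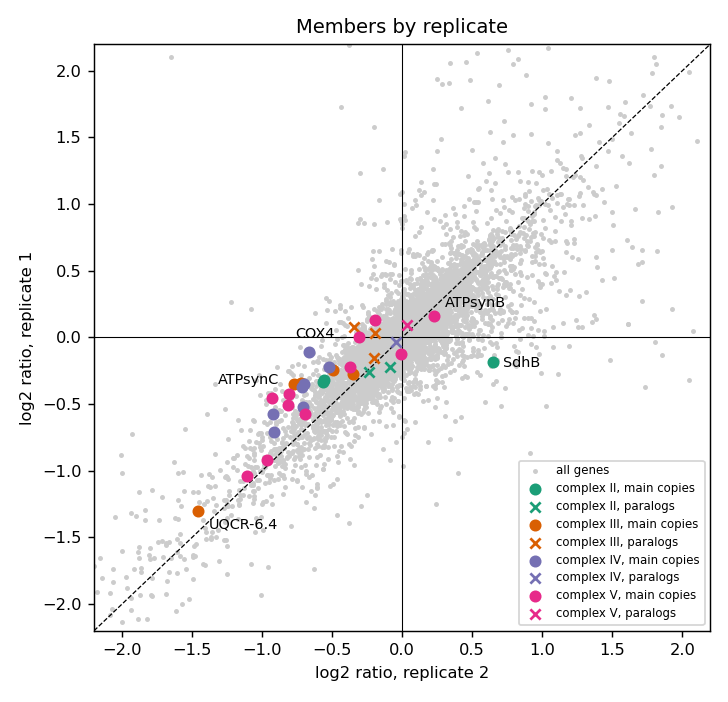
Log2 ratio of trx mutant over wild type in replicate 2 (x axis) and replicate 1 (y axis), each the mean of 2 dye-swapped arrays, for genes with 4 values. Gray points are all such genes, colored circles are main copies, crosses are paralogs and the dashed line marks equal values. Most main copies lie below 0 on both axes and left of the dashed line, and SdhB lies at 0.65 in replicate 2 and -0.18 in replicate 1.

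Main copies and their paralogs could be set side by side in 8 pairs. In 6 pairs the main copy was lower than its paralog in both replicates, by a mean of 0.19 for SdhC and SdhCL up to 1.14 for ATPsynCF6 and ATPsynCF6L. The pair values were -0.44 and -0.25 for SdhC and SdhCL, -0.37 and -0.080 for Cyt-c1 and Cyt-c1L, -0.56 and -0.18 for UQCR-14 and UQCR-14L, -0.62 and -0.040 for COX7A and COX7AL, -0.66 and 0.075 for ATPsynG and ATPsynGL, and -1.07 and 0.065 for ATPsynCF6 and ATPsynCF6L. The exceptions are SdhB, which was higher than SdhBL in both replicates, and ATPsynbeta, whose dye gap is given above and whose paralog ATPsynbetaL averaged -0.16. ATPsynepsilonL, the remaining paralog of complex V, averaged -0.011 over 2 arrays, both with the mutant in Cy3, so the dye does not cancel in its mean. The differences within pairs were not tested, since they compare different probes. Of all members tested, 26 of 26 main copies but 7 of 14 paralogs had 4 values. As the ratios hold no signal levels, whether weak spots bring the ratios of paralogs near 0 was not tested.

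The members lie on chromosomes X, 2, 3 and 4, and chromosome 3, which carries the *trx* alleles, holds 15 of the 26 main copies tested. The median of these 15 was -0.53, and that of the 11 on other chromosomes was -0.56. Over all genes the median was -0.028 on chromosome 3 and -0.012 on other chromosomes. On other chromosomes 1 of 16 members tested was called lower, UQCR-6.4, and 103 of 5363 of all genes were. On chromosome 3, with 9 members tested on 3L and 16 on 3R, Sdhaf3 and ATPsynCF6 were called. There 146 of 4334 of all genes were called lower. Sdhaf3, ATPsynCF6, ATPsynO and COX7A lie on 3R and COX7B on 3L, while UQCR-6.4 lies on 2R and ATPsyndelta on X.

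Subunits of the same complexes whose names fall outside the symbol rule had negative means as well. Of 6 with a probe, 5 were tested and all 5 had means below 0. The ATP synthase subunit sun was called lower, with -1.02, -0.85, -1.47 and -1.03 (mean -1.09, adjusted p = 0.0333, limma). The complex III subunit ox averaged -0.67 (adjusted p = 0.0302, limma), where replicate 2 rests on the array with the mutant in Cy5 alone. The complex IV subunits cype and levy averaged -0.45 (adjusted p = 0.0450, limma) and -0.36 (adjusted p = 0.120). blw is given above. Of 3 carrier genes tested, porin, the channel of the outer membrane, was the one past the test and was called lower, with -1.62, -0.69, -1.61 and -0.50, a split by dye like that of ATPsynCF6. Of 7 genes for assembly and for mitochondrial DNA and its control, 6 were below 0, and the one past the test was Scox, which serves copper delivery to complex IV and fell by 0.78 (adjusted p = 0.0226).

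Complex I, which feeds the same chain from NADH, had a median of -0.40 over 28 genes tested, with 26 below 0. Of them 3 were called lower and 10 were lower at any fold, where 2.52% and 8.18% of all genes were. The mitochondrial ribosome, which makes the mitochondrially encoded subunits of complexes I and III to V, had a median of -0.69 over 68 genes, and all 68 were below 0. Of these 10 were called lower and 53 were lower at any fold, against the same shares of all genes. The 53 are a larger share than the 7 of 41 members or the 6 of 26 main copies. The difference between the lists was not tested. Replicate 2 was lower than replicate 1 in 25 of 28 genes of complex I but in 31 of 68 of the mitochondrial ribosome, and in 5073 of 10050 of all genes.

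Other lists lay on either side of 0. The vacuolar proton ATPase, a related rotary pump of acidic organelles, had a median of 0.19 over 25 genes, with 3 higher at any fold. The cytosolic ribosome had a median of 0.20 over 36 genes, with 7 higher and 3 lower at any fold, and its median was -0.027 with the mutant in Cy3 and 0.46 with the mutant in Cy5. A list of enzymes of the TCA cycle and some related to it, such as muc of pyruvate dehydrogenase, had 10 genes tested. Of these 5 were below 0 and 5 above. Idh3g at -0.85 and ScsbetaG at -0.59 fell, and Ogdh at 0.56 rose at an adjusted p of 0.0297 (limma). Glycolysis had a median of -0.20 over 9 genes, of which 7 were below 0 and none of those passed, while Pgi (0.50) and Hex-A (0.38) rose. Of the enzymes that remove reactive oxygen, Cat was called higher at 1.06 (adjusted p = 0.0264), and Sod2, of the mitochondrial matrix, had -0.59 (adjusted p = 0.0519).

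**Figure D4:**
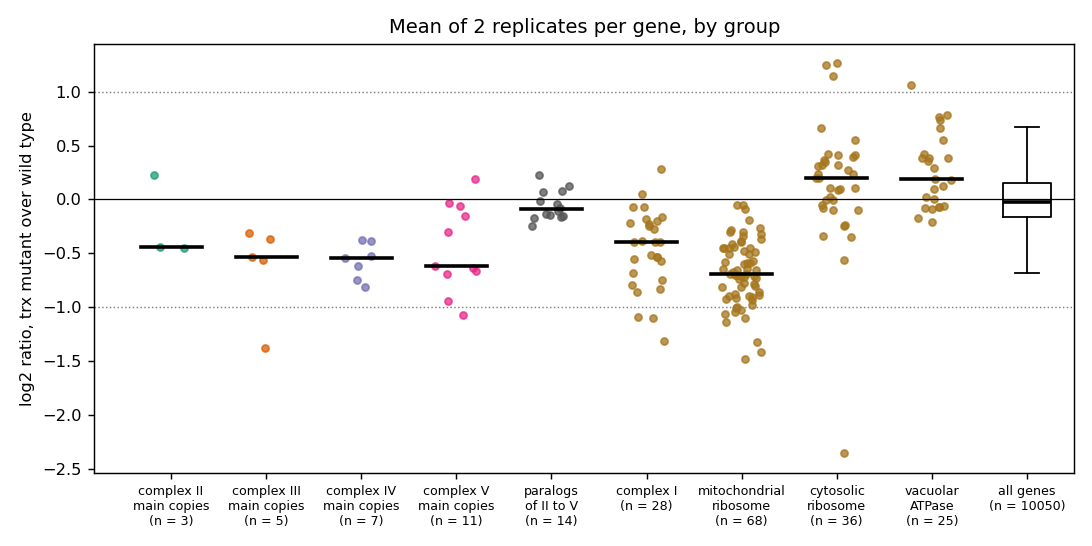
Mean log2 ratio of trx mutant over wild type (y axis) per gene, the mean of 2 replicates, for the main copies of each complex, the paralogs, and 4 other lists (x axis, with the number of genes tested). Points are genes, thick lines are medians, the box at the right holds the quartiles of all 10050 genes with whiskers at the 5th and 95th percentiles, and dotted lines mark 2-fold. Main copies of complexes II to V have medians between -0.62 and -0.44, the mitochondrial ribosome -0.69, and the cytosolic ribosome and vacuolar ATPase 0.20 and 0.19.

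Markers of tissues rich in mitochondria, or of other tissues of the larva, moved as follows. Of 18 muscle genes 11 were tested, with a median of -0.17 (range -0.96 to 0.73). Mlp60A was lower at any fold (-0.96, adjusted p = 0.0417) and none was higher. Of 19 testis genes 8 were tested, with a median of -0.072 (range -0.31 to 0.29) and none past the test. Of 8 neuron genes 6 were tested, with a median of -0.0032. Fat body and midgut markers spread widely, with Lsp2 at 3.98 and Jon65Aiv at 3.13 called higher, apolpp at -0.61 and Jon99Cii at -0.60 lower at any fold, and ranges between -0.61 and 3.98 over 4 fat body genes and between -0.60 and 3.13 over 10 midgut genes. Their part in the ratios of the members was not tested.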

How the data were processed

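RNA was amplified, labeled with Cy3 or Cy5 and hybridized to spotted long-oligonucleotide arrays. The authors deposited a log2 ratio, mutant over wild type, for each probe. According to their methods they scanned with GenePix Pro, removed spots below quality thresholds, corrected background with normexp in limma, applied OLIN within arrays and scaled between arrays by the median absolute deviation. Versions of these tools: not given in the sources used here. Removed spots have no value. The direction of the ratios was checked on gene lists that the study gives as higher or lower.

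Of 16416 probes, 13164 name 1 gene and 101 name several or none in the platform annotation. Through the NCBI gene table (Release 6 plus ISO1 MT), 12533 were matched by Entrez id, 120 by accession, and 511 kept the platform's symbol. Sequences, and promoter motifs, were not analysed here. Probes of a gene were averaged per array, then the 2 arrays of an extraction. The 2 replicate means were tested against 0 with limma 3.58.1 (R 4.3.3), moderating variances toward a prior SD of 0.083 with 1.81 degrees of freedom, and Benjamini-Hochberg adjustment over 10050 genes. The fit was also run on simulated data with variances drawn from its own prior. Those data held no dye effect and no missing array, and the outcome is not given here. Alternatives were 1 probe per gene, genes on all 4 arrays, median centring, quantile normalization, robust moderation, independent arrays, a 1.5-fold threshold and leaving out arrays or replicates.

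Members, lists and tests were chosen with earlier results of these data known. Every member is named. Values per array were to be given for called members, for all tested members of small complexes, for the largest and the nearest to 0 of the others, for paralog pairs and for discordant probes. For SdhAL, Cyt-c1L, UQCR-14L, ATPsynCF6L, ATPsynGL, ATPsynbetaL and ATPsynepsilonL, which fall under this plan, the text gives means only. One testis gene of the list, whose name matched an unrelated gene, was left out.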

Additional observations from a re-analysis of the deposited data

Results flagged for a closer look

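Each of the 33 members with 4 values was checked for an array that stands apart from the other 3, and 1 did. ATPsyngamma had 0.0805 on array 4 (replicate 2, mutant in Cy5), while its other arrays lay between -0.12 and -0.097, and the gap of that array was 0.872 of the whole range. The rule flags about 1 in 20 groups of 4 independent values. The arrays here are dye-swapped pairs, so that rate need not hold and 1 of 33 was not judged against it. Both probes of the gene were above 0 on that array (0.079 and 0.082).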

How the results depend on the processing

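UQCR-6.4 was called lower, and ATPsynO, ATPsyndelta and COX7B were lower at an adjusted p under 0.05, under every setting run. The number of members called lower (3 of 41) was 7 of 41 at a 1.5-fold threshold and 1 of 16 off chromosome 3. It was 5 of 37 with Cy3 arrays alone, 1 of 34 with Cy5 arrays alone, and 1 to 3 when an array was left out. With an array left out, 221 to 272 of all genes were called lower. The share of all genes at 1.5-fold was not computed. The number lower at any fold (7 of 41) was 13 of 37 with Cy3 arrays alone and 20 of 41 with the 4 arrays as independent samples. It was 23 of 37 with a dye term added, 21 of 41 with the replicate as a random block, and 5 to 12 when an array was left out. The share of all genes at any fold under these settings was not computed, so these counts are no result about the members. Fits with independent arrays, with or without the dye term, count both arrays of an extraction as separate samples. The random block had a correlation of -0.112, so it made no allowance for their shared RNA either. Members higher at any fold (0) became 1 with Cy5 arrays alone, which was ATPsynbeta, and 1 with 4 independent arrays, with the dye term and with the random block, which was ATPsynB in all 3. Genes called higher (158) became 240 with independent arrays and with the random block.

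Signs turned for ATPsynB with 1 probe (-0.0130), ATPsynD with Cy5 arrays (0.0765), ATPsynepsilonL after median centring (0.0076), ATPsynGL with the dye term (-0.0391) or with an array left out (-0.0187 to 0.1683), and ATPsynbeta with Cy5 arrays (0.8476), quantile normalization (0.0254) or with an array left out (-0.5704 to 0.5066). Causes were not tested. Of 539 values over 41 genes, 453 kept direction and side of the threshold, 70 gained significance, 7 lost it and 9 turned sign. Of the 70, 15 came with independent arrays, 17 with the dye term added and 15 with the random block. Those fits take the arrays of an extraction one by one. Fits by dye, with the dye term and with the block, and the members off chromosome 3, were added after the data were seen. A random block together with a dye term could not be fitted. The number of arrays limits precision.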

Other observations

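The turn of sign between replicates seen in SdhB was also seen in genes of the TCA cycle list and in a carrier. mAcon1, the mitochondrial aconitase, had -0.20 and -0.15 in replicate 1 and 1.49 and 1.48 in replicate 2. Mpcp2, a phosphate carrier, had -0.66 and -0.31 in replicate 1 and 0.70 and 0.49 in replicate 2, and muc, a subunit of pyruvate dehydrogenase, had -0.88 and -0.68, then 0.24 and 0.13. Idh3b was also higher in replicate 2 but kept its sign, with 0.042 and 0.097 in replicate 1 and 0.95 and 0.89 in replicate 2. None of these passed the test. They were named after their values were seen.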
